A study of Mus musculus with 48 samples.

Results

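Mouse macrophages grown from blood monocytes were cultured for 3 days with CD146 cells, which the series title and design describe as endothelial cells of the liver sinusoids, or stayed in MCSF medium as controls. The comparison used the 3 arrays titled with CD115, CD146 and 3 days, set against the 3 arrays titled with CD115 and 3 days alone, which makes 6 of the 48 arrays of the series. The whole series also holds Kupffer cells (liver-resident macrophages), as well as additions of Ito cells (the stellate cells of the liver) or of the growth factor HGF, and cultures of 1 day. Monocytes had been taken from the blood of Balbc males by magnetic sorting for CD115, the receptor of MCSF, and all were first kept for 1 day with MCSF. After that day the CD146 cultures received CD146 cells for 3 days, and their controls are labelled as MCSF for 4 days in all. The labels state neither the age nor the genotype nor the number of animals per culture, nor how the added cells were separated from the macrophages, if at all, nor if MCSF stayed in the medium with them, so the addition and any change of MCSF cannot be told apart.

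MCSF, the product of Csf1, keeps monocytes alive and turns them into macrophages through its receptor Csf1r. In the liver, sinusoidal endothelial cells line the capillaries in which Kupffer cells sit, and in mice monocytes that enter an emptied niche take up Kupffer cell genes under Notch ligands, TGF-beta family ligands and other signals from endothelial and stellate cells. Macrophages also shift their metabolism and their output of enzymes, chemokines and matrix proteases with the signals they meet. CD146 is the product of Mcam, an adhesion molecule of endothelial cells and some other vessel-associated cells.

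The values are log2 array signals as the authors deposited them, in which 1 unit is a doubling. The titles call the replicates biological, without naming separate animals. The p-values measure the spread between arrays within all 16 groups of the series, not that of the 6 arrays compared alone. The number of arrays limits the precision. Negative control probe sets averaged 5.98, 5.94 and 6.15 on the CD146 arrays and 6.03, 5.95 and 5.71 on the control arrays, above the median gene (5.27, 5.25 and 5.39 with CD146 cells, 5.23, 5.22 and 5.22 in controls). A gene whose group mean lay under the negative controls is called background-limited here, and 10612 of 19505 genes were so in both groups. Where 1 group was background-limited, fold changes are lower bounds against its own signal or the negative controls, whichever is higher. Differences are CD146 minus control with their standard errors, a gene rose or fell only where limma's adjusted p was under 0.05, and 1 fit over all 48 arrays gave the error.

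Control replicate 3 stood apart before any comparison. Over all genes it correlated with the other 2 controls at r = 0.976 and 0.979, while those 2 correlated at 0.994 and the CD146 arrays among themselves at 0.990 to 0.993. The mean of 32 cell cycle genes was 6.48, 6.46 and 6.71 on the CD146 arrays and 6.39, 6.66 and 10.89 on the controls. Control 3 thus lay about 4 log2 units above every other array of the comparison. The 3-day monocytic arrays with other additions were near its level, at 10.52, 10.80 and 10.67 with Ito cells and 10.01, 9.85 and 10.12 with HGF. Results are given with control 3. For a called gene the value without it stands beside the result where it ends the call or moves the fold by over 1.5 times.

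In all, 468 of 19505 genes passed (2.4% of genes), 237 of them higher with CD146 cells (1.22%) and 231 lower (1.18%). Centring each array on its median gave 180 higher and 304 lower, and the median difference over all genes was 0.06. Without control 3, 510 genes passed (2.61%), 244 higher (1.25%) and 266 lower (1.36%), and 317 genes passed both ways (1.63%). Of the 468 genes, 388 differed by at least 1 log2 unit and 96 by at least 2, of which 50 were higher and 46 lower. Groups did not overlap for 3887 genes (19.9%), many more than passed. Among the arrays left out in turn, the count depended most on the CD146 arrays, with 274 genes without CD146 replicate 2 and 246 without CD146 replicate 3.

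The largest rise was in Arg1, the enzyme that splits arginine into ornithine and urea. It read 15.12, 15.60 and 16.10 on the CD146 arrays, against 8.68, 9.17 and 9.74 on the controls. Every CD146 array lay more than 5 units above every control, a difference of 6.41 ± 0.59 and an 85.1-fold change (adjusted p = 1.48e-09). Without control 3 the difference was 6.68. Arg2, the mitochondrial arginase, read 10.96, 10.62 and 11.24 with CD146 cells, against 8.95, 9.25 and 6.20 in controls, with control 3 the lowest (difference 2.81 ± 0.53, adjusted p = 0.00107, and 1.84 without control 3).

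**Figure D1:**
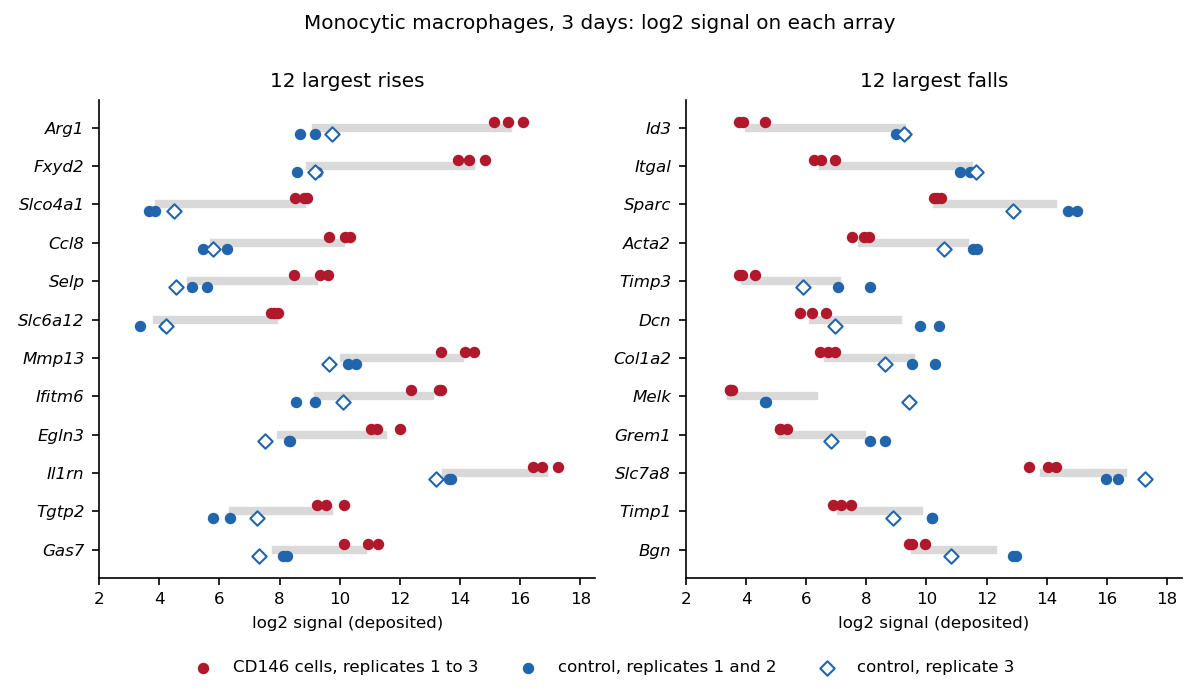
Log2 signal (horizontal axis) of the 12 genes with the largest rise and the 12 with the largest fall, 1 row per gene, with 1 point for each of the 3 CD146 arrays and 3 control arrays, control replicate 3 as an open diamond, and grey bars joining the group means. Arg1 shows the widest gap upward, 15.12 to 16.10 with CD146 cells against 8.68 to 9.74 in controls, and Itgal a gap downward with both groups above background, 6.27 to 6.97 with CD146 cells against 11.13 to 11.65 in controls.

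The 12 largest rises included an antagonist, a protease, an adhesion molecule and a chemokine. Il1rn, the natural antagonist of the interleukin 1 receptor, read 16.44, 16.73 and 17.25 with CD146 cells, against 13.71, 13.63 and 13.21 in controls (difference 3.29 ± 0.40, 9.77-fold, adjusted p = 6.65e-07). Mmp13, a collagenase, read 13.38, 14.17 and 14.47 with CD146 cells, against 10.27, 10.53 and 9.66 in controls (3.86 ± 0.45, 14.5-fold, adjusted p = 4.31e-07). The groups of both genes were separated by more than 2 units. Selp, which encodes the adhesion molecule P-selectin, read 9.36, 8.47 and 9.59 with CD146 cells, against background-limited 5.09, 5.57 and 4.54 in controls, at least 9.46-fold higher (adjusted p = 2.59e-07). Ccl8, a monocyte-attracting chemokine, read 10.18, 10.34 and 9.63 with CD146 cells, against 5.45, 6.25 and 5.78 in controls, at least 16.3-fold higher (adjusted p = 4.31e-07). Neither gene overlapped between the groups.

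Carriers or a pump subunit made up 3 of the 12. Fxyd2, a regulatory subunit of the sodium pump, read 14.84, 14.31 and 13.92 with CD146 cells, against 8.58, 9.24 and 9.19 in controls (5.36 ± 0.58, 41-fold, adjusted p = 6.37e-08). Slco4a1, an organic anion transporter, read 8.92, 8.51 and 8.80 with CD146 cells, against background-limited 3.87, 3.66 and 4.48 in controls (at least 7.18-fold higher, adjusted p = 4.18e-08). Slc6a12, a betaine transporter, was at 7.83 with CD146 cells, against 3.93 in controls (at least 3.81-fold higher, adjusted p = 1.42e-04). In contrast Slc7a8, a carrier of neutral amino acids, was among the 12 largest falls. It read 13.40, 14.04 and 14.30 with CD146 cells, against 16.38, 15.96 and 17.27 in controls (difference -2.62 ± 0.36, adjusted p = 5.72e-06). The groups of these 4 genes did not overlap.

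The other large rises were Ifitm6, a member of the interferon-induced transmembrane family (3.73 ± 0.65, adjusted p = 2.84e-04), the interferon-induced GTPase Tgtp2 (3.18 ± 0.42, adjusted p = 3.08e-06) and Gas7, a regulator of the actin cytoskeleton (2.90 ± 0.50, adjusted p = 2.81e-04). Tgtp2 has a near-identical neighbour, Tgtp1, whose signal its probes may share. Egln3 completes the 12 and is described with its pathway. The rule that named the 12 required a pass with and without control 3.

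One of the largest falls was in Id3, an inhibitor of DNA-binding that BMP and TGF-beta signals induce and that mouse Kupffer cells need for their identity. It read 4.64, 3.89 and 3.77 on the CD146 arrays, against 8.99, 9.29 and 9.26 on the controls. With CD146 cells it was background-limited on every array, so its size is known only as a bound, at least 8.93-fold lower (adjusted p = 3.99e-06). Control 3 lay between the other controls. Smad6, an inhibitory SMAD that BMP signals also induce, read 5.84, 5.61 and 6.38 with CD146 cells, against 7.66, 7.45 and 8.18 in controls, at least 3.17-fold lower (adjusted p = 8.11e-04).

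Of 24 measured genes of the TGF-beta and BMP pathway, these 2 fell and none rose, against 1.18% of all genes lower (list median -0.09, all genes 0.06), with 3 lower without control 3. Among ligands, Tgfb1 differed by -0.61 ± 0.20 and did not pass (adjusted p = 0.108). Id1, another BMP-induced target, differed by -2.21 ± 0.67, also without passing (adjusted p = 0.0732), and its difference was -1.09 without control 3. Grem1, a secreted BMP antagonist, fell: it read 5.13, 5.37 and 5.12 with CD146 cells, against 8.12, 8.64 and 6.84 in controls, at least 3.59-fold lower (adjusted p = 3.75e-06). A BMP antagonist and BMP-induced genes fell in the same cultures, and Grem1 is also made by fibroblasts.

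Itgal, the alpha chain of the leukocyte integrin LFA-1, fell most among called genes above background in both groups and had the smallest p of the 24 genes with the largest changes. It read 6.27, 6.48 and 6.97 with CD146 cells, against 11.13, 11.46 and 11.65 in controls. The groups were more than 4 units apart, and control 3 was with the other controls (difference -4.84 ± 0.32, 28.6-fold lower, adjusted p = 7.33e-14).

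Of 20 genes of Kupffer cell identity, 5 fell and none rose, against 1.18% of all genes lower (median -0.69). Without control 3, 7 fell and 1 rose, with a median of -0.02. The number that fell was 2 without CD146 replicate 2 and 3 without CD146 replicate 1 or CD146 replicate 3. Vsig4, a complement receptor of resident macrophages, read 12.98, 12.79 and 13.16 with CD146 cells, against 14.01, 14.22 and 14.54 in controls (-1.28 ± 0.29, adjusted p = 0.0065, or 0.05 without CD146 replicate 2). Adgre4, an adhesion receptor of macrophages, read 8.44, 8.50 and 8.27 with CD146 cells, against 11.08, 11.41 and 9.94 in controls (-2.41 ± 0.39, adjusted p = 1.11e-04). Neither gene overlapped. Spic, the transcription factor of iron-recycling macrophages, was background-limited with CD146 cells and at least 2.63-fold lower (adjusted p = 0.0174), a call that ended without any 1 array except control 3 (adjusted p = 0.0572 to 0.0884). Cd5l, a secreted macrophage protein, read 8.63, 8.01 and 8.81 with CD146 cells, against 10.96, 11.52 and 8.60 in controls, so its groups overlapped through control 3 (-1.88 ± 0.51, adjusted p = 0.0333, and -2.76 without that array), and the call ended without any 1 of the other 5 arrays (adjusted p = 0.0616 to 0.287). Timd4, a receptor for dying cells on embryo-derived Kupffer cells, differed by -0.59 ± 0.35 (adjusted p = 0.504) and Nr1h3, the oxysterol receptor LXR alpha, by -0.79 ± 0.36 (adjusted p = 0.321). Clec4f, a lectin particular to mouse Kupffer cells, was background-limited in both groups.

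Of 15 measured genes of circulating monocytes, 4 rose and 1 fell, against 1.22% of all genes higher and 1.18% lower (median 0.15, or 0.50 without control 3). The rises numbered 2 without CD146 replicate 3, and with only the 6 arrays in the fit 2 rose and none fell. Ccr2, the receptor that takes classical monocytes out of the marrow, read 7.75, 9.43 and 9.64 with CD146 cells, against 6.45, 6.62 and 7.30 in controls (2.15 ± 0.45, adjusted p = 0.00299, or 0.0559 without CD146 replicate 3). Ly6c2, the surface marker of those monocytes, read 7.90, 10.56 and 10.90 with CD146 cells, against 7.00, 7.78 and 7.31 in controls (2.42 ± 0.47, adjusted p = 0.00135). F13a1, the A subunit of clotting factor XIII, read 10.49, 11.97 and 11.67 with CD146 cells, against 8.88, 8.65 and 8.03 in controls (2.85 ± 0.48, adjusted p = 1.94e-04). In all of these CD146 replicate 1 was the lowest of its group, and for Ly6c2 it lay just above the highest control. Without that array the difference was 2.74 for Ccr2 and 3.36 for Ly6c2. Ly6c2 has a near-identical copy, Ly6c1, whose signal may be shared. Chil3, a chitinase-like lectin, was at least 2.47-fold higher (adjusted p = 0.0065) and Treml4, a receptor of the nonclassical subset, was background-limited with CD146 cells and at least 1.36-fold lower (adjusted p = 0.00621). Without control 3 neither passed (adjusted p = 0.064 for Chil3 and 0.109 for Treml4, then background-limited in both groups), and Chil3 did not pass without CD146 replicate 3 either. Cx3cr1, the fractalkine receptor, was background-limited in both groups.

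Of 13 genes that macrophages share, 1 passed. Fcgr1, the high-affinity IgG receptor, rose and read 13.69, 13.92 and 13.85 with CD146 cells, against 11.94, 11.91 and 13.25 in controls (1.45 ± 0.29, adjusted p = 0.00172). Csf1r averaged 17.66 with CD146 cells and 17.86 in controls, and Adgre1, the usual marker of mature mouse macrophages, averaged 15.69 with CD146 cells and 16.07 in controls. Neither difference passed. Csf1 itself fell. It read 8.62, 9.51 and 9.57 with CD146 cells, against 12.59, 12.43 and 10.34 in controls, with control 3 nearest to the CD146 arrays (-2.55 ± 0.50, adjusted p = 0.00157, and -3.27 without control 3). Il34, which encodes the other ligand of Csf1r, was background-limited in both groups.

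Glycolysis and hypoxia genes had the most rises of the 33 lists examined. These genes include glucose transporters, glycolytic enzymes and targets of the hypoxia-inducible factors (HIF), which bind a short core motif when oxygen falls or when other signals stabilise them. Of 22 measured, 13 rose and none fell, against 1.22% of all genes higher, the list median was 1.24, and every member's difference was positive. Without control 3, 14 rose, and leaving out any 1 array of the comparison left 9 to 14, while 7 rose with only the 6 arrays in the fit. The mean of the list was 12.20, 12.31 and 12.58 on the CD146 arrays and 10.95, 11.10 and 11.23 on the controls, with no overlap. The 3-day monocytic arrays of the other additions also lay above the controls, at 12.02, 12.28 and 12.06 with Ito cells and 12.31, 12.32 and 12.10 with HGF. Set directly against Ito cells, 4 of 22 were higher with CD146 cells and 1 lower (median 0.18), against 5.49% and 5.82% of all genes.

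**Figure D2:**
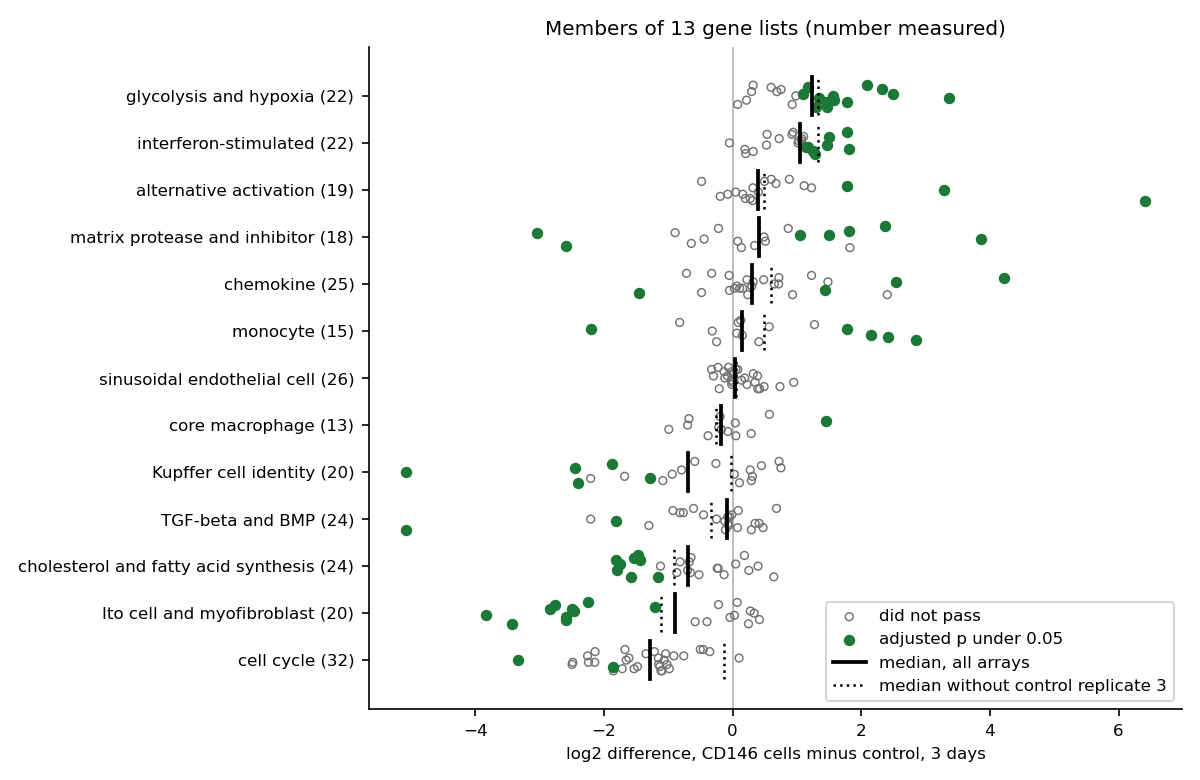
Log2 difference (CD146 cells minus control, horizontal axis) of every measured member of 13 gene lists, 1 row per list, filled where the gene passed and open where it did not, with a solid line at the median and a dotted line at the median without control replicate 3. Glycolysis and hypoxia genes lie right of 0 (median 1.24) and Ito cell and myofibroblast genes mostly left of it (median -0.89).

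Egln3, a prolyl hydroxylase that marks HIF proteins for destruction and is itself a HIF target, rose most. It read 11.24, 11.05 and 11.99 with CD146 cells, against 8.36, 8.30 and 7.52 in controls (3.37 ± 0.41, 10.3-fold, adjusted p = 6.65e-07). Ankrd37, a small ankyrin protein and HIF target, read 7.94, 8.56 and 8.93 with CD146 cells, against 6.18, 6.06 and 5.71 in controls (2.49 ± 0.39, adjusted p = 7.96e-05). Slc16a3, the carrier MCT4 that exports lactate, read 12.87, 13.13 and 13.05 with CD146 cells, against 10.46, 10.87 and 11.42 in controls (2.10 ± 0.33, 4.28-fold, adjusted p = 7.96e-05). None of these 3 overlapped between the groups. Vegfa, the main growth factor for endothelial cells, read 11.63, 12.02 and 12.38 with CD146 cells, against 10.14, 10.39 and 8.54 in controls (2.33 ± 0.37, 5.01-fold, adjusted p = 1.01e-04). Its control 3 was the lowest array, and the difference was 1.75 without it.

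The start regions of 3 of these genes are shown because most of their list rose and its known factor has a short motif. Each run is RefSeq sequence of GRCm38.p6, 250 bases before to 50 after the annotated gene start, 5′ to 3′ on the gene's strand, with matches to ACGTG or GCGTG, on either strand, in capitals. Egln3 lies on the minus strand of chromosome 12 (chr12:54203825-54204124), Ankrd37 on the minus strand of chromosome 8 (chr8:45999801-46000100) and Slc16a3 on the plus strand of chromosome 11 (chr11:120948817-120949116).
Egln3: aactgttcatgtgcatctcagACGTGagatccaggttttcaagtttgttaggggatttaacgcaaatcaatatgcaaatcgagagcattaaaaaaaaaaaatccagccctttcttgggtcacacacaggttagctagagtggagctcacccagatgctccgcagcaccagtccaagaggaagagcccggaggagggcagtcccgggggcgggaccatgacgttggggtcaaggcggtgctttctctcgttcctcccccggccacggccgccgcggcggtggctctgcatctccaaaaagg
Ankrd37: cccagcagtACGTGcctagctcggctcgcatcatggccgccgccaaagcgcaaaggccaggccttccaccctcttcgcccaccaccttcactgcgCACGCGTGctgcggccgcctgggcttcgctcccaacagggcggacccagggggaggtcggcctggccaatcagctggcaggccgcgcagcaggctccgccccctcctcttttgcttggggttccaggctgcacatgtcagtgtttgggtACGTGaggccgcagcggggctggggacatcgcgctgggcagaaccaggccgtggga
Slc16a3: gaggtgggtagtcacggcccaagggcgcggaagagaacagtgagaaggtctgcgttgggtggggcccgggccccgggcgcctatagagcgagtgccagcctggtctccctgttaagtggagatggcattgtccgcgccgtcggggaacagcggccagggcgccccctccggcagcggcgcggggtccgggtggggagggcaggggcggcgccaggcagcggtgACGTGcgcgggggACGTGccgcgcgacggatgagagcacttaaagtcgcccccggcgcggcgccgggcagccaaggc

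The motif was in the first window of 16 of the 21 list members that had one, and in 43.8% of the 32851 windows in the table. Vegfa, which rose as well, had no match in its first window. A motif this short is common, and a match describes the sequence and no binding.

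Interferon-stimulated genes, which cells turn on in response to interferons and which restrict viruses, also rose in part. Of 22 measured, 8 rose and none fell, against 1.22% of all genes higher (median 1.05), and 12 rose without control 3 (1.25% of all genes), on whose array several members were at the level of the CD146 cultures. The count rested on few arrays: it was 1 without CD146 replicate 2 or without CD146 replicate 3, 9 without CD146 replicate 1, 2 without control 1 and 3 without control 2. With only the 6 arrays in the fit it was 1, and after median centring it was 4. The list mean was 8.30, 9.11 and 9.23 on the CD146 arrays and 7.45, 7.69 and 8.64 on the controls, so control 3 lay above CD146 replicate 1 and the groups overlapped.

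Stat2, a transcription factor of interferon signalling, read 10.43, 11.50 and 11.47 with CD146 cells, against 9.33, 9.33 and 9.33 in controls (1.81 ± 0.37, adjusted p = 0.00257). Mx2, an antiviral GTPase, read 7.13, 8.14 and 8.10 with CD146 cells, against 6.67, 6.35 and 6.50 in controls (1.28 ± 0.29, adjusted p = 0.00829), a call that ended without CD146 replicate 2 or 3 (adjusted p = 0.08 to 0.083). The groups of both were separate, with CD146 replicate 1 the lowest of its group. Oasl2, a member of the oligoadenylate synthetase family, read 12.48, 13.67 and 13.64 with CD146 cells, against 11.03, 11.10 and 13.28 in controls (1.46 ± 0.39, adjusted p = 0.0295). Rtp4, an interferon-induced chaperone, read 10.01, 10.56 and 10.78 with CD146 cells, against 7.60, 8.09 and 10.34 in controls (1.78 ± 0.44, adjusted p = 0.0174). Control 3 overlapped the CD146 arrays for both, and without it their differences were 2.20 for Oasl2 and 2.61 for Rtp4. Both calls ended without control 1, control 2, CD146 replicate 2 or CD146 replicate 3 (adjusted p = 0.169 to 0.23 for Oasl2 and 0.0742 to 0.197 for Rtp4). Ifi213, of the interferon-inducible PYHIN family and no member of the list, rose by 2.51 ± 0.42 (adjusted p = 1.61e-04).

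The start region of Stat2, on the plus strand of chromosome 10 (chr10:128270248-128270547, same build and window), is shown with its match to GAAANNGAAA, the core of the interferon-stimulated response element, in capitals.
Stat2: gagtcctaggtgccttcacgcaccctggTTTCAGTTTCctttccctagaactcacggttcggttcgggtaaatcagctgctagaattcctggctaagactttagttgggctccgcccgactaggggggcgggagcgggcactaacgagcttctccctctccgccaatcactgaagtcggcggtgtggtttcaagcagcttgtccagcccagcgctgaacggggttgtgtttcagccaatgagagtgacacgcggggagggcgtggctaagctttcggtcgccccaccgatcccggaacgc
This motif, searched on both strands, was in the first window of 10 of 16 list members with a window and in 3.44% of all windows. The first window of Oasl2 had none.

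Genes of alternative activation, the state that interleukin 4 brings about, rose in few members. Of 19 measured, 3 rose (Arg1, Il1rn and Chil3) and none fell, against 1.22% of all genes higher (median 0.40), and 2 rose without control 3 or without CD146 replicate 3. Mrc1, the mannose receptor, differed by 0.50 ± 0.52 (adjusted p = 0.775). Of 21 pro-inflammatory genes, Ccl2 alone passed, against 2.4% of all genes. Il1b differed by 0.53 ± 0.72 (adjusted p = 0.845) and Tnf by -0.99 ± 0.87 (adjusted p = 0.706). Il6, Nos2, which competes with arginase for arginine, and Il10 were background-limited in both groups.

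Chemokines gave 3 rises and 1 fall among 25, against 1.22% of all genes higher and 1.18% lower (median 0.30), and 5 rises and 1 fall without control 3 (median 0.60). The rises numbered 1 without CD146 replicate 3, control 1 or control 2, and the fall was lost without CD146 replicate 1, control 1 or control 2. With only the 6 arrays in the fit 2 rose and none fell. Ccl2, the ligand of Ccr2, read 10.78, 11.29 and 12.22 with CD146 cells, against 7.25, 7.22 and 12.22 in controls. Control 3 matched the highest CD146 array while the other 2 controls lay more than 3 units below the lowest (2.53 ± 0.58, adjusted p = 0.00911, and 4.20 ± 0.29 with adjusted p = 1.67e-13 without control 3). Ccl2 did not pass without CD146 replicate 3, control 1 or control 2 (adjusted p = 0.0989 to 0.168), and its difference was 1.71 without control 1 and 1.69 without control 2. With only the 6 arrays in the fit Ccl2 did not pass either (limma adjusted p = 0.366). Ccl6, a chemokine of myeloid cells, read 16.55, 16.60 and 16.55 with CD146 cells, against 15.30, 15.04 and 15.05 in controls (1.44 ± 0.39, adjusted p = 0.0325), a call that ended without any 1 of the 6 arrays (adjusted p = 0.0501 to 0.103). Cxcl12, the stromal chemokine that holds CXCR4-bearing cells, was the 1 that fell, at 5.79, 6.83 and 7.13 with CD146 cells, against 8.23, 8.87 and 7.02 in controls (-1.46 ± 0.37, adjusted p = 0.0201), with control 3 inside the CD146 range. It did not pass without CD146 replicate 1, control 1 or control 2 (adjusted p = 0.0737 to 0.214).

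Genes that mark Ito cells and myofibroblasts, the collagen-making cells of injured liver, fell in part. Of 20 measured, 10 fell and none rose, against 1.18% of all genes lower (list median -0.89), 10 fell without control 3, and leaving out any 1 array left 9 or 10. With only the 6 arrays in the fit 7 fell. The list mean was 5.44, 5.57 and 5.67 on the CD146 arrays and 7.10, 7.20 and 6.33 on the controls. Neither group had been given Ito cells. The 3-day monocytic arrays of the other additions were lower still, at 4.85, 4.75 and 4.74 with Ito cells and 4.79, 4.87 and 4.87 with HGF. Bulk arrays cannot tell fewer cells of a type from less RNA per cell. The part of other cell types in the fall with CD146 cells was not tested. The other 10 members, among them the stellate cell markers Lrat, Reln, Hand2 and Pdgfrb, were background-limited in both groups.

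Sparc, a secreted collagen-binding protein, read 10.26, 10.36 and 10.49 with CD146 cells, against 14.72, 15.02 and 12.87 in controls (-3.83 ± 0.49, 14.2-fold lower, adjusted p = 2.34e-06), and without control 3 it was 22.6-fold lower. Acta2, smooth muscle actin, read 7.54, 8.08 and 7.92 with CD146 cells, against 11.67, 11.56 and 10.60 in controls (-3.43 ± 0.35, 10.8-fold lower, adjusted p = 2.44e-08). Col1a2, a chain of type I collagen, read 6.45, 6.74 and 6.96 with CD146 cells, against 9.52, 10.27 and 8.63 in controls (-2.76 ± 0.36, adjusted p = 3.36e-06). In all 3, control 3 was the lowest control and still above every CD146 array. The same held for the proteoglycans Dcn and Bgn. Dcn read 5.81, 6.19 and 6.65 with CD146 cells, against 9.80, 10.43 and 6.95 in controls (-2.84 ± 0.48, adjusted p = 2.00e-04), and Bgn read 9.41, 9.53 and 9.95 with CD146 cells, against 12.89, 12.97 and 10.81 in controls (-2.59 ± 0.54, adjusted p = 0.00299). Without control 3 their differences were -3.90 for Dcn and -3.30 for Bgn, and without control 2 that of Dcn was -2.15. Neither passed with only the 6 arrays in the fit (limma adjusted p = 0.135 for Dcn and 0.0587 for Bgn).

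**Figure D3:**
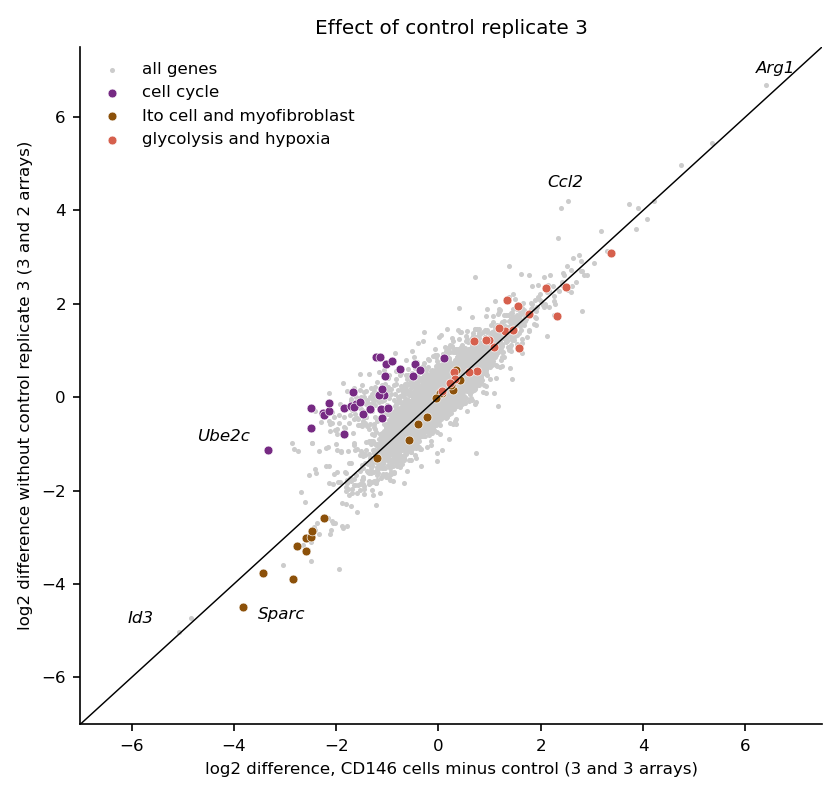
Log2 difference of every gene (CD146 cells minus control) with 3 and 3 arrays on the horizontal axis and without control replicate 3 on the vertical axis, and the line of equality. Cell cycle genes lie above the line (median -1.28 with control 3 and -0.13 without it), while the falls of Ito cell and myofibroblast genes are larger without that array (median -0.89 with it and -1.12 without it).

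Some matrix proteases rose while 2 of their inhibitors fell. Of 18 measured, 5 rose and 2 fell, against 1.22% of all genes higher and 1.18% lower (median 0.42), and the counts were the same without control 3. Beside Mmp13, the collagenase Mmp8 read 14.48, 14.82 and 15.15 with CD146 cells, against 12.72, 12.89 and 13.40 in controls (1.81 ± 0.20, 3.51-fold, adjusted p = 8.90e-08). Timp1 read 7.48, 6.88 and 7.15 with CD146 cells, against 10.19, 10.19 and 8.90 in controls (-2.59 ± 0.37, adjusted p = 1.45e-05). Timp3 read 3.86, 3.78 and 4.32 with CD146 cells, against 7.05, 8.12 and 5.91 in controls, at least 2.01-fold lower (adjusted p = 4.36e-05). Timp1 is also in the Ito cell list. Mmp8 is also a neutrophil marker, and it was the 1 of 11 neutrophil genes that passed, against 2.4% of all genes, or of 3 without CD146 replicate 1.

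Enzymes of cholesterol synthesis, which SREBP2 turns on when sterol is scarce, fell in part. Of 24 genes of cholesterol and fatty acid synthesis, 8 fell and none rose, against 1.18% of all genes lower (median -0.69), and 10 fell without control 3, against 1.36% of all genes lower (median -0.90). Without control 2 the count was 4, without any other 1 array except control 3 it was 5, and with only the 6 arrays in the fit 3 fell. The list mean was 7.54, 7.62 and 7.88 on the CD146 arrays and 8.56, 8.62 and 8.07 on the controls.

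Hsd17b7, a sterol reductase, read 6.03, 6.38 and 6.03 with CD146 cells, against 7.37, 7.75 and 7.66 in controls (-1.45 ± 0.29, adjusted p = 0.00208). Fdft1, squalene synthase, read 7.24, 6.94 and 7.35 with CD146 cells, against 8.82, 8.95 and 8.16 in controls (-1.47 ± 0.30, adjusted p = 0.00257). Cyp51, the lanosterol demethylase, read 7.54, 6.66 and 7.70 with CD146 cells, against 9.01, 9.76 and 8.39 in controls (-1.75 ± 0.38, adjusted p = 0.00524, or 0.072 to 0.0802 without control 2 or CD146 replicate 2). Each was separate between the groups. Sqle, squalene epoxidase, read 4.36, 3.99 and 3.89 with CD146 cells, against 6.29, 5.73 and 5.63 in controls and fell (adjusted p = 3.10e-04), with both group means under the negative controls, so no fold is given. The element TCACNCCAC, which SREBP factors bind, was in the first window of 1 of 19 list members with a window and in 1.24% of all windows.

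Among other lists, growth factors gave 3 rises and 1 fall of 22, against 1.22% of all genes higher and 1.18% lower, and 1 rise and no fall with only the 6 arrays in the fit. Beside Vegfa and Csf1, Pdgfa, a mitogen of stellate cells and fibroblasts, rose by 1.35 ± 0.32 (adjusted p = 0.0107, or 0.0525 to 0.0989 without control 2 or CD146 replicate 3) and Plau, the urokinase that activates plasminogen, by 1.05 ± 0.30, at the threshold (adjusted p = 0.0495). The call of Plau held only without CD146 replicate 1 among the arrays left out in turn (adjusted p = 0.0598 to 0.382 for the others), and the rises numbered 1 without control 2 or CD146 replicate 3. Met, the receptor of HGF, rose: it read 8.07, 8.41 and 8.83 with CD146 cells, against 6.43, 6.83 and 6.60 in controls (1.81 ± 0.34, adjusted p = 0.00104). Hgf averaged 9.62 with CD146 cells and 9.62 in controls, and Igf1 averaged 18.68 with CD146 cells and 18.94 in controls, and neither passed. Ednrb, an endothelin receptor, read 16.73, 16.21 and 16.26 with CD146 cells, against 14.98, 15.20 and 12.63 in controls (2.13 ± 0.38, adjusted p = 3.63e-04). Its control 3 lay more than 2 units below the other controls, and the difference was 1.31 without it.

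The Notch pathway was searched because sinusoidal endothelial cells carry its ligands. Of 16 genes, 1 passed, against 2.4% of all genes. Rbpj, the DNA-binding partner of the cleaved receptor, read 14.68, 14.52 and 15.13 with CD146 cells, against 12.86, 12.91 and 13.93 in controls. Its groups did not overlap (difference 1.54 ± 0.25, 2.91-fold, adjusted p = 1.01e-04). With only the arrays compared in the fit no gene of the list passed (limma adjusted p = 0.0658 for Rbpj). The Notch targets Hes1 and Hey1 and the ligand Dll4 were background-limited in both groups. The ligand Jag1 differed by 0.66 ± 0.37 and did not pass (adjusted p = 0.447).

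Small numbers passed in the remaining lists, against 1.22% of all genes higher and 1.18% lower. With only the 6 arrays in the fit, none passed among the lysosomal, dendritic cell and complement genes, and no lipid handling gene fell. The cysteine protease Ctsl was the 1 of 19 lysosomal genes that rose (1.43 ± 0.28, adjusted p = 0.00134), and the integrin Itgb3 the 1 of 23 genes of dead-cell uptake and scavenging (1.45 ± 0.34, adjusted p = 0.0115, or 0.0521 to 0.116 without CD146 replicate 2 or 3). Among LXR targets and lipid handling genes, Lpcat3, which remodels phospholipids, fell by 0.95 on the log2 scale (adjusted p = 0.0214, or 0.0516 to 0.169 without control 1, control 2, CD146 replicate 2 or CD146 replicate 3) and Apoc1, an apolipoprotein, rose while background-limited in both groups (adjusted p = 7.87e-05). Hsph1, a heat shock protein (1.37 ± 0.22, adjusted p = 1.28e-04), and Ier3, an immediate early gene (2.09 ± 0.53, adjusted p = 0.021), rose out of 21 such genes, Ier3 only with all 6 arrays, or without control 2 or CD146 replicate 3 (adjusted p = 0.0506 to 0.123 for the others). Gsr, glutathione reductase, rose out of 18 genes of the NRF2 and iron list (0.98 ± 0.18, adjusted p = 9.22e-04). Itgax, the integrin CD11c, rose as the 1 of 11 dendritic cell genes and the 1 of 15 complement genes (1.60 ± 0.44, adjusted p = 0.0388), a call that ended without control 3 or any 1 CD146 array (adjusted p = 0.0634 to 0.294). In 3 further lists with 46 genes in all (antigen presentation by MHC class II, the respiratory chain, and integrated stress with serine synthesis) limma called none, and 8 genes had an unadjusted p under 0.05, against 13.4% of all genes.

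Genes of sinusoidal endothelial cells, the type named for the added cells, were not called higher. None of 26 passed in limma, 2 had an unadjusted p under 0.05 (median 0.03), 21 were background-limited in both groups, and the list mean was 5.26, 5.32 and 5.40 on the CD146 arrays and 5.17, 5.24 and 5.19 on the controls. Mcam, which encodes CD146, read 3.70, 4.11 and 4.52 with CD146 cells, against 4.45, 4.11 and 3.73 in controls. The endothelial genes Cdh5, Pecam1, Stab2 and Lyve1 were likewise background-limited in both groups. No gene passed among 16 of hepatocytes, 7 of cholangiocytes, 12 of T and NK cells, 8 of B cells, 5 of platelets and 4 of erythroid cells, of which 9 of 52 had an unadjusted p under 0.05, against 2619 of all 19505 genes (13.4%).

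Cell cycle genes showed the effect of control 3 most plainly. Of 32 measured, 2 fell, against 1.18% of all genes lower (median -1.28), whereas none fell and 1 rose without control 3 (median -0.13), and 20 fell without control 1 and 16 without control 2, and none with only the 6 arrays in the fit. Ube2c, an enzyme of mitotic exit, read 4.30, 4.58 and 4.98 with CD146 cells, against 5.77, 5.73 and 12.35 in controls. It was background-limited with CD146 cells and at least 3.8-fold lower (adjusted p = 0.00837, or 0.0758 without control 3), at least 8.08-fold without control 1 and 8.19-fold without control 2. Ccne2, a cyclin of S phase entry, was the other gene of the list that fell, background-limited with CD146 cells and at least 1.12-fold lower, or 1.96-fold without control 1 (adjusted p = 0.0323), and its call ended without control 3 or any 1 CD146 array (adjusted p = 0.0876 to 0.447). Mki67, the marker of cycling cells, read 10.18, 10.49 and 10.77 with CD146 cells, against 10.63, 10.80 and 15.57 in controls, and did not pass (adjusted p = 0.123). Pcna, the sliding clamp of DNA replication, differed by 0.10 ± 0.31, and it was the 1 that rose without control 3 (0.84 ± 0.23, adjusted p = 0.0345). Melk, a mitotic kinase outside the list, read 3.48, 3.47 and 3.55 with CD146 cells, against 4.63, 4.68 and 9.43 in controls. It was background-limited with CD146 cells and at least 1.17-fold lower (adjusted p = 0.00223), at least 2.04-fold without control 1 and 2.01-fold without control 2. Without control 3 Ube2c, Ccne2 and Melk were background-limited in both groups, so no fold is given, and Melk alone of these passed (adjusted p = 0.0109).

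The response of 3 days was set against that of 1 day, where 3 CD146 arrays and 3 control arrays of their own were compared. At 1 day 455 genes passed (2.33%), 196 higher and 259 lower. Of the 237 genes higher with CD146 cells at 3 days, 10 were higher and 46 lower at 1 day (1% and 1.33% of all genes), with a median of -0.21. Of the 231 lower at 3 days, 18 were higher and 4 lower at 1 day, with a median of 0.17. The difference between the responses passed for 618 genes (3.17%).

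**Figure D4:**
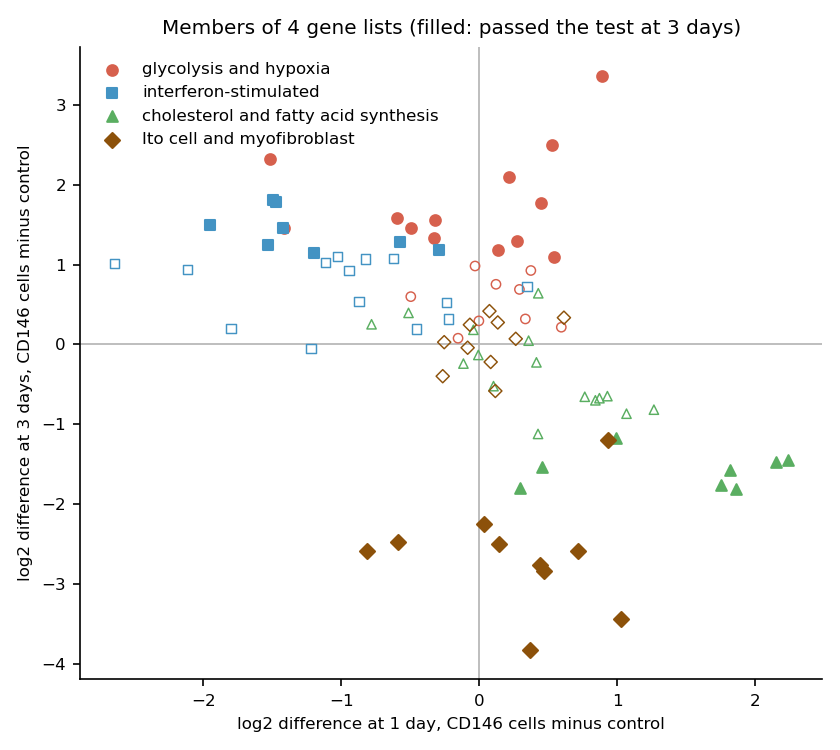
Log2 difference, CD146 cells minus control, of the members of 4 gene lists at 1 day (horizontal axis) and at 3 days (vertical axis), filled where the gene passed at 3 days. Interferon-stimulated genes lie mostly left of 0 and above it (medians -1.07 at 1 day and 1.05 at 3 days), and cholesterol genes mostly right of 0 and below it (medians 0.61 at 1 day and -0.69 at 3 days).

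Selp differed most between the times. At 1 day it read 5.41, 4.45 and 5.02 with CD146 cells, against 10.86, 10.69 and 10.81 in controls, so it was lower with CD146 cells on every array, the opposite of 3 days. The 3-day controls and the 1-day CD146 arrays were background-limited, so the 3-day response exceeded the 1-day response by at least 8.12 (adjusted p = 1.19e-13). Mmp13 read 12.91, 13.07 and 12.90 with CD146 cells at 1 day, against 15.94, 15.91 and 15.94 in controls, again the opposite direction (difference of responses 6.82 ± 0.64, adjusted p = 1.02e-09). Ccl6 differed by -4.58 ± 0.39 at 1 day (difference of responses 6.02 ± 0.55, adjusted p = 4.30e-10), and Eps8, an actin-binding signalling adaptor, by -3.66 ± 0.45 at 1 day and 2.45 ± 0.45 at 3 days.

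Arg1 was high in both groups at 1 day. It read 18.65, 18.68 and 18.79 with CD146 cells, against 18.95, 19.07 and 18.99 in controls, with no called difference (adjusted p = 0.976). At 3 days both groups were lower than that, the CD146 arrays by about 3 units and the controls by about 10. The responses differed by 6.71 ± 0.83 (adjusted p = 6.11e-07). For Id3, Itgal and Sparc the 3-day controls were above the 1-day controls. At 1 day Id3 read 4.57, 4.61 and 4.80 with CD146 cells, against 3.73, 4.58 and 4.06 in controls. Sparc read 4.94, 4.88 and 5.24 with CD146 cells at 1 day, against 4.41, 5.22 and 4.33 in controls, so both genes were background-limited then in both groups. Itgal read 9.25, 8.84 and 8.89 with CD146 cells at 1 day, against 7.52, 7.54 and 7.92 in controls, higher with CD146 cells (adjusted p = 0.0109), and its responses differed by -6.18 ± 0.45 (adjusted p = 1.15e-12).

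**Figure D5:**
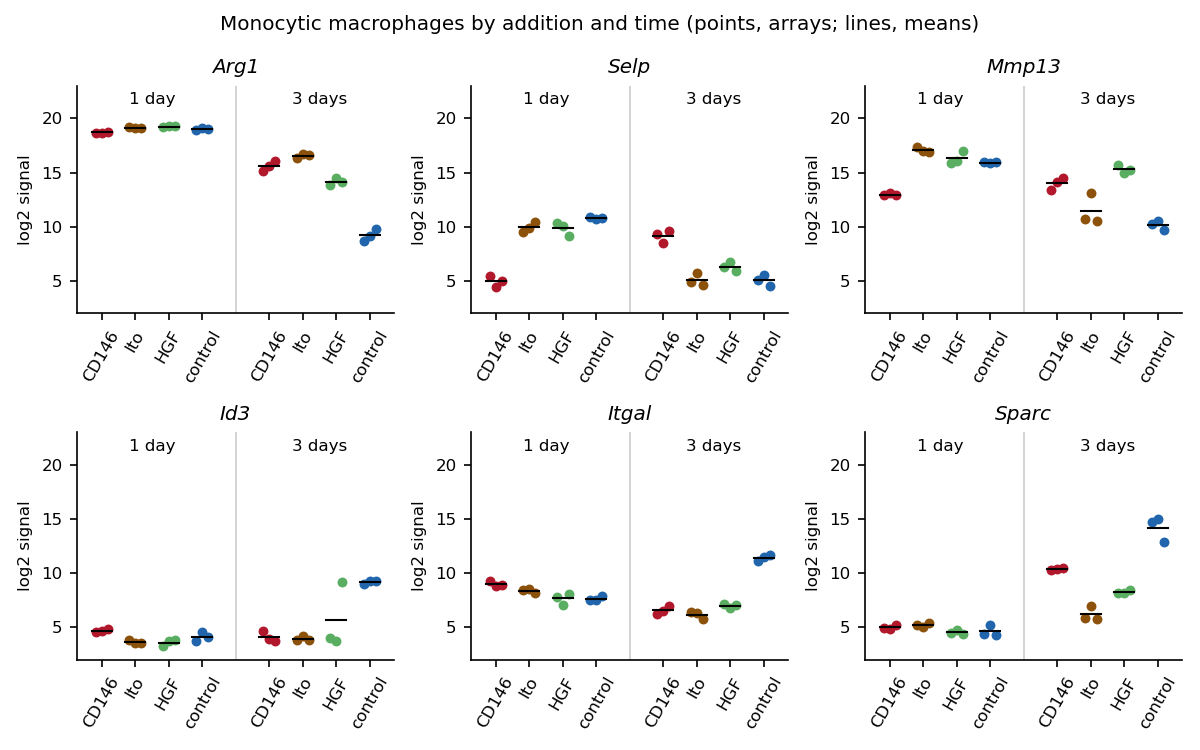
Log2 signal (vertical axis) of 6 genes on the monocytic arrays by addition (CD146 cells, Ito cells, HGF, MCSF control) at 1 and 3 days, with points for arrays and lines for means. Arg1 at 3 days is lowest in the controls (8.68 to 9.74), and Itgal at 3 days is highest in them (11.13 to 11.65).

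The additions of Ito cells and of HGF at 3 days were set against the same 3 controls, so their values are given as levels. Arg1 read 16.33, 16.69 and 16.60 with Ito cells and 13.83, 14.46 and 14.09 with HGF. Itgal read 6.40, 6.36 and 5.74 with Ito cells and 7.14, 6.75 and 7.06 with HGF. For both genes the controls lay apart from the arrays of all 3 additions. Id3 read 3.80, 4.17 and 3.84 with Ito cells and 4.01, 3.77 and 9.16 with HGF, where 1 array was at the control level.

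Some lists had opposite directions at the 2 times, as the plot of both differences shows. Of the interferon-stimulated genes, 9 of 22 were lower and 0 higher with CD146 cells at 1 day (list median -1.07, with 1.33% of all genes lower), against 8 higher and none lower at 3 days. The responses differed for 13 of the 22, higher at 3 days in each. Of the cholesterol genes, 7 of 24 were higher and none lower with CD146 cells at 1 day (list median 0.61, with 1% of all genes higher), against none higher and 8 lower at 3 days. Cyp51 differed by 1.75 ± 0.38 at 1 day and -1.75 ± 0.38 at 3 days, and the responses differed by -3.51 ± 0.54 (adjusted p = 3.17e-05). Hsd17b7 differed by 2.24 ± 0.29 at 1 day (difference of responses -3.69 ± 0.41, adjusted p = 6.58e-08).

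Kupffer cells with CD146 cells for 3 days had a different response from monocytic macrophages. Their own comparison called 5147 genes (26.4%), and the 2 responses differed for 3545 genes (18.2%), or 3055 (15.7%) without control 3. Beside these, 6 of 7 cholangiocyte genes (median 5.44) and 31 of 32 cell cycle genes (median 5.04) were higher on the Kupffer CD146 arrays than in Kupffer controls (14% of all genes higher), and the part of this in the differences was not tested. Arg1 went the opposite way, at 4.72, 5.04 and 3.74 in Kupffer cells with CD146 cells, against 8.25, 9.83 and 10.62 in Kupffer controls. Kupffer cells with CD146 cells were background-limited for Arg1, so the monocytic response exceeded the Kupffer response by at least 10.47 (adjusted p = 7.05e-14). Id3 read 9.09, 9.39 and 8.58 in Kupffer cells with CD146 cells, against 5.73, 5.89 and 6.33 in Kupffer controls, a rise where the monocytic cultures fell (difference of responses -6.19 or further below 0, adjusted p = 1.11e-08). Arg2 (at least 7.81), the surface receptor Slamf8 (at least 6.68) and the interleukin 21 receptor Il21r (at least 5.63), all background-limited in Kupffer cells with CD146 cells, likewise rose in monocytic macrophages and fell in Kupffer cells.

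CD146 cells and Ito cells were also compared directly on monocytic macrophages at 3 days, where 2207 genes differed (11.3%), 1071 higher with CD146 cells (5.49%) and 1136 lower (5.82%). Interferon-stimulated genes were higher with CD146 cells for 18 of 22 and lower for none (median 2.02), against 5.49% of all genes higher. Cell cycle genes were lower with CD146 cells for all 32 measured (median -4.04), against 5.82% of all genes lower. Arg2 read 10.96, 10.62 and 11.24 with CD146 cells, against 5.47, 5.33 and 5.31 with Ito cells, which were background-limited (at least 42.1-fold higher, adjusted p = 1.43e-09). Ednrb read 16.73, 16.21 and 16.26 with CD146 cells, against 11.84, 12.67 and 12.20 with Ito cells (4.16 ± 0.38, adjusted p = 4.94e-10). Both genes were separate between the additions. Selp read 9.36, 8.47 and 9.59 with CD146 cells, against 4.86, 5.67 and 4.65 with Ito cells, again background-limited (at least 11.4-fold higher, adjusted p = 4.49e-08). Sparc was higher with CD146 cells by 4.18 ± 0.49 (adjusted p = 7.15e-08), although it was lower with them than in controls. Ccl2 was lower with CD146 cells, at 10.78, 11.29 and 12.22, against 16.16, 16.54 and 16.16 with Ito cells (-4.85 ± 0.58, adjusted p = 1.15e-07), and so was Ube2c (at least 34-fold, adjusted p = 6.94e-08).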

How the data were processed

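Total RNA of the cultures was labelled as biotinylated cRNA for Affymetrix arrays, per the labels' protocols. The authors deposited 1 log2 signal per probe set and array, made with RMA in Transcriptome Analysis Console, per the submitters' processing notes. Those notes carry no version numbers, and the genome build was not given in the sources used here. In all 28846 probe sets on 48 arrays were in the table (values 0.88 to 19.93), and every sample column was mapped (0 left unused). Control probe sets (6640) were left out of tests, and 5222 negative controls among them gave the background level. Of 22206 transcript probe sets, 19572 carried 1 gene symbol and 2634 none. Each of the 55 genes with several probe sets was represented by the probe set with the highest mean signal, giving 19505 genes.

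Groups were compared with limma 3.58.1 in R 4.3.3 (lmFit and eBayes) in 1 fit of 16 groups with 3 arrays each, with no further normalization, and Benjamini-Hochberg adjustment over all genes. The named genes are the 12 largest rises and falls among non-overlapping genes that passed with and without control 3, up to 4 members of each list by adjusted p, a fixed set of macrophage and endothelial genes, and the 6 largest of each sign in the other 3 contrasts. Unnamed gene models and near-identical families were skipped. The 33 lists, these rules and the alternatives were chosen with earlier results of these data known. Alternatives were quantile normalization, median centring, filters on dim genes, all probe sets, limma with trend and robust settings, array weights, a 2-fold minimum, only the arrays compared, replicate numbers as a block, and each array left out. The scripts were tested on simulated data. Start regions came from a RefSeq table, and plots from matplotlib 3.10.9 under Python 3.11.15.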

Additional observations from a re-analysis of the deposited data

Results flagged for a closer look

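The response to CD146 cells in monocytic macrophages differed between 3 days and 1 day by limma's test of the difference itself, and among the genes called at 3 days the largest positive differences were Selp (9.90), Ifitm6 (6.91), Mmp13 (6.82), Arg1 (6.71), Eps8 (6.10) and Ccl6 (6.02). The largest negative ones were Itgal (-6.18), Id3 (-5.61), Treml4 (-4.84), Acta2 (-4.46), Sparc (-4.20) and Engase, a glycan-trimming enzyme (-3.96). Selp, Id3, Treml4, Sparc and Engase were background-limited in at least 1 of the 4 groups, so their differences are not exact sizes. These genes had been picked for passing at 3 days, so the sign of the difference is no independent support for that response. Adjusted p-values of these differences ran up to 1.38e-04 for Id3.

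The response of monocytic macrophages at 3 days also differed from that of Kupffer cells by the test of the difference. Among the genes called in monocytic macrophages at 3 days, with near-identical families such as the histones left aside, the largest positive differences were Arg1 (11.48), C4a (9.69), Arg2 (8.53), Fxyd2 (8.04), Slamf8 (7.62) and Il21r (6.94). The largest negative ones were Ube2c (-11.92), Pbk (-9.51), Melk (-9.06), Id3 (-8.11), Knl1 (-7.68) and Cenpa (-7.03). Except for Fxyd2 and Cenpa, all were background-limited in at least 1 of the 4 groups, so 10 of the 12 differences are not exact sizes. C4a has a near-identical copy, C4b, whose signal may be shared. Its monocytic rise (2.27 ± 0.59) did not pass without control 1, control 3 or any 1 CD146 array (adjusted p = 0.0539 to 0.17). Ube2c, Pbk, Melk, Knl1 and Cenpa are genes of cell division. In Kupffer cells 31 of 32 cell cycle genes were higher with CD146 cells. The monocytic fall of Cenpa (-1.90) did not pass without control 3 (-1.15, adjusted p = 0.0717). That of Pbk ended without control 3 or CD146 replicate 3 (adjusted p = 0.0574 to 0.148). That of Knl1 ended without control 3 or any 1 CD146 array (adjusted p = 0.0823 to 0.661). Without control 3 Pbk and Knl1 were background-limited in both groups. Control 3 of the monocytic arrays was high in these genes, and the difference between the cell types passed for all 5 without that array as well.

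Among 2634 probe sets without a gene symbol, which entered no comparison above, 48 passed the test of monocytic CD146 cultures against controls at 3 days, 32 of them higher with CD146 cells and 16 lower.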

How the results depend on the processing

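With CD146 cells at 3 days the count of 468 genes became 1597 with array weights, 205 with only the 6 arrays in the fit and 924 with only 5 arrays, control 3 left out, a setting added after seeing the data like that without both control 3 and CD146 replicate 3 (341). Leaving out 1 array gave 246 to 510 genes. For the difference between 3 days and 1 day, array weights gave 1846 genes, only the arrays compared 1025 and leaving out 1 array 482 to 638. The difference from Kupffer cells stayed within 1.5 times under every alternative (3055 to 3595 genes with 1 array left out). CD146 against Ito cells gave 3747 genes with array weights and 1647 to 1816 with 1 array left out. The cause of these shifts was not tested. With quantile normalization the first comparison split into 278 higher and 243 lower genes, and with genes under the negative controls left out into 237 and 286.

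Of 76 named genes called, 73 to 76 stayed called under the scaling, weighting and trend settings and the 2-fold minimum, 58 to 67 with 1 array left out, 46 with only the arrays compared, and no direction turned. Genes whose call ended with only the arrays compared included Arg2, Csf1, Vegfa, Ccr2, Ly6c2, Ednrb, Fcgr1, Ctsl, Rbpj, Melk, Dcn, Bgn, Ccl2 and Cxcl12. Replicate numbers as a block gave 435, 590, 3529 and 2163 genes in the 4 contrasts. Same-numbered deviations correlated at 0.114, 0.00647 and 0.0123. With 3 arrays per group these values cannot show if same-numbered samples shared animals or a batch. Signals near the negative controls limit what can be said of dim genes.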

Other observations

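Control replicate 3 differed from the other controls beyond the cell cycle genes. The class II genes that present antigen were lower on it: H2-Aa read 12.12, 12.81 and 12.45 with CD146 cells, against 12.27, 12.48 and 9.35 in controls, and H2-Ab1 read 12.12, 11.96 and 12.16 with CD146 cells, against 12.09, 11.89 and 9.47 in controls. Marco, a scavenger receptor, was higher on it, at 9.26, 10.52 and 10.35 with CD146 cells, against 9.54, 10.32 and 15.30 in controls, and S100a4, a calcium-binding protein of monocytes, read 11.20, 11.39 and 9.97 with CD146 cells, against 8.70, 9.18 and 13.45 in controls. None of these 4 genes passed, and they were chosen after their values were seen.

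CD146 replicate 1 was the lowest of its group in Mpo, the myeloperoxidase of neutrophil granules. Mpo read 5.50, 8.46 and 7.51 with CD146 cells, against 5.70, 5.33 and 5.34 in controls, where the controls were background-limited, and it did not pass (adjusted p = 0.0922). The same array was lowest of its group in Ccr2 and Ly6c2. Mpo was chosen after its values were seen as well.

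Among HGF cultures of 3 days, 1 array of 3 read Id3 at the level of the controls (4.01, 3.77 and 9.16), while Arg1 on the same arrays read 13.83, 14.46 and 14.09.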
